A study of Homo sapiens with 27 samples.

Results

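A set of 10 solute carrier genes that encode amino acid transporters of the plasma membrane were followed by RNA-seq in 3 diffuse large B-cell lymphoma (DLBCL) lines in which the mitochondrial deacylase SIRT3 had been depleted. The genes were SLC7A5, SLC3A2, SLC43A1, SLC1A4, SLC1A5, SLC7A1, SLC38A1, SLC38A2, SLC6A9 and SLC36A1, taken by symbol, which makes 10 of the 27115 genes listed in every library. With both SIRT3 shRNAs, 7 of the 10 mRNAs fell over the 3 lines, where 3.98% of all tested genes did, most steeply that of the glycine transporter SLC6A9. The count was 2 with replicate 2 of every group left out and 3 without Karpas422, fits on fewer libraries for which no share of all genes is given. The proton-coupled transporter SLC36A1 did not pass the test in any line. In OCI-Ly1, most of the difference rested on 1 control library.

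Proliferating lymphoma cells take up amino acids through a few carriers with overlapping substrates. SLC7A5 (LAT1) binds the heavy chain SLC3A2 (CD98) and exchanges large neutral amino acids such as leucine, and SLC43A1 (LAT3) carries branched-chain and aromatic amino acids without exchange. SLC1A5 (ASCT2) and SLC1A4 (ASCT1) exchange small neutral amino acids together with sodium, SLC38A1 and SLC38A2 bring in glutamine and alanine with sodium, SLC7A1 (CAT1) carries arginine and lysine, and SLC6A9 (GLYT1) carries glycine. SLC36A1 (PAT1) moves small amino acids with protons and is found at lysosomes as well as at the cell surface. Several genes of this kind are known targets of ATF4, the transcription factor of the amino acid response, whose dependence on mitochondrial metabolism is what the study asked about.

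The groups were Karpas422, OCI-Ly1 and HBL1 cells, each carrying shCTRL (a control hairpin), shSIRT3-1 or shSIRT3-2, with RNA taken at 8 days. Each of the 9 groups had 3 replicates, which gave 27 libraries. All groups, controls included, carry a pLKO.1 lentiviral vector with puromycin resistance and YFP, so each is a pool of infected cells of an established line and not a clone. OCI-Ly1 was grown in a different basal medium from the other lines, so that line and medium cannot be told apart. The study describes the knockdown as replicated in each line but does not say what separates the replicates, so the p-values measure the spread between these samples, which may be technical.

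Values are given as CPM, the read count of a gene scaled to a common library total set by the authors, and changes as differences of log2(CPM + 0.1), written as log2 fold changes with their standard error (SE). Calls required more than a 1.5-fold change together with a p below 0.05 in limma after Benjamini-Hochberg adjustment over all genes tested (13076 over the 3 lines), and all 10 transporters passed the filter on low values. The libraries held from 28694398 to 53405456 reads on genes. SIRT3 mRNA was lower with shSIRT3-1 (log2 fold change -2.45 ± 0.17, SE) than with shSIRT3-2 (-1.37 ± 0.17, SE), and it was below its shCTRL libraries in each line. Over the 3 lines these values were -2.41 and -1.33 without OCI-Ly1 shCTRL replicate 2 and -2.45 and -1.37 without HBL1 shSIRT3-1 replicate 3. All 6 B-cell markers examined were above 1 CPM in every library, with a sum between 945 and 2494 CPM. They did not stay level: with shCTRL, shSIRT3-1 and shSIRT3-2, CD22 averaged 389, 427 and 66.5 CPM in Karpas422. In HBL1, in the same order, CD22 averaged 52.1, 56.7 and 7.80 CPM, PAX5 575, 256 and 274 CPM, and CD79A 309, 553 and 493 CPM. The 4 T-cell, 4 myeloid and 4 epithelial markers read at most 1.59 CPM (CD3D in Karpas422 shCTRL), except for EPCAM and CD3G. EPCAM in HBL1 read 3.50 to 7.27 CPM. CD3G in Karpas422 ranged from 35.8 to 41.4 CPM with shCTRL, from 17.6 to 30.2 CPM with shSIRT3-1 and from 29.8 to 39.1 CPM with shSIRT3-2. The part of these markers in the results was not tested. Since the RNA is bulk, less RNA per cell cannot be told apart from fewer cells with a high level.

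Libraries of several groups stood apart from their replicates, and a pair of them was followed further. HBL1 shSIRT3-1 replicate 3 differed from the other replicates with a chi-square per degree of freedom of 239 and 282 over all genes, against 18.9 between those. OCI-Ly1 shCTRL replicate 2 differed with 153 and 126, against 100.1. By the same measure Karpas422 shSIRT3-2 replicate 3 differed with 116 and 103, against 18.1. HBL1 shCTRL replicate 3 differed with 91.7 and 59.3, against 6.74. In OCI-Ly1, replicate 2 of shSIRT3-1 (65.0 and 59.1, against 11.3) and of shSIRT3-2 (61.5 and 77.8, against 10.6) differed too. In OCI-Ly1 shCTRL replicate 2, SLC6A9 stood at 28.3 CPM, against 1.67 and 1.75 in the other OCI-Ly1 controls. SLC43A1 stood at 164 CPM there, against 21.8 and 19.5. Of the transporters, 8, all but SLC38A1 and SLC36A1, were more than 1.5-fold above both other controls in this library, where 5.12% of all tested genes were. The fold changes of the transporters against shCTRL over the 3 lines and the counts of calls are therefore also given without it. Without HBL1 shSIRT3-1 replicate 3 the counts over the 3 lines were 8 with shSIRT3-1 and 7 with shSIRT3-2 and with both, where 8.09%, 10.5% and 4.09% of genes were called lower.

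The letters TGATGNAA are a core of the sites that heterodimers of C/EBP proteins and ATF4 bind, and they were looked for on both strands in the 250 bases before and the 50 bases after the annotated starts, from the RefSeq promoter table (GRCh38.p14). Of the 10 genes, 5 held the letters in at least 1 window (50%), against 4.46% of the 27305 gene symbols in the table. The 5 stretches are printed 5′ to 3′ on the strand of the gene, with the matching letters, or their reverse complement, in capitals, since they show which of the transporters carry them. The SLC3A2 stretch is at chr11:62881725-62881748 (plus strand), the SLC1A4 stretch at chr2:64989381-64989410 (plus), the SLC1A5 stretch at chr19:46784893-46784922 (minus), the SLC7A1 stretch at chr13:29595663-29595692 (minus) and the SLC38A1 stretch at chr12:46266502-46266531 (minus).
SLC3A2: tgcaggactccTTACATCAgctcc
SLC1A4: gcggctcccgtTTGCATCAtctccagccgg
SLC1A5: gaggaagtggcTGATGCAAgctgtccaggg
SLC7A1: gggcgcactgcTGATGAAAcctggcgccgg
SLC38A1: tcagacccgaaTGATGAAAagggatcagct
Counted from the annotated start, the capitals begin at 37 in SLC3A2, -7 in SLC1A4, -97 in SLC1A5, 7 in SLC7A1 and -4 in SLC38A1, with negative values before the start. The SLC3A2 and SLC1A4 stretches hold the letters on the opposite strand, and those of SLC7A1 and SLC38A1 hold the same 8 letters, TGATGAAA. The windows of SLC7A5, SLC43A1, SLC38A2, SLC6A9 and SLC36A1 do not hold them. A match is a description of the sequence and not a binding site.

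Over the 3 lines, 8 of the 10 transporters fell with shSIRT3-1, where 9.09% of all tested genes were called lower. With shSIRT3-2, 7 fell, where 10.2% of genes did, and the same 7 (SLC7A5, SLC3A2, SLC43A1, SLC1A5, SLC7A1, SLC38A2 and SLC6A9) fell with both shRNAs, as 3.98% of genes did. None rose, where 3.92% and 3.29% of genes did. The median log2 fold change of the 10 was -1.33 with shSIRT3-1 and -0.85 with shSIRT3-2, while that of all tested genes was -0.05 and -0.03. Without OCI-Ly1 shCTRL replicate 2 the counts were again 8, 7 and 7, where 9.05% and 9.67% of genes were called lower with shSIRT3-1 and shSIRT3-2. With replicate 2 of all 9 groups left out, 2 were called with both shRNAs, and with Karpas422 left out, 3. These fits had fewer libraries, and no share of all genes is given for them.

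**Figure D1:**
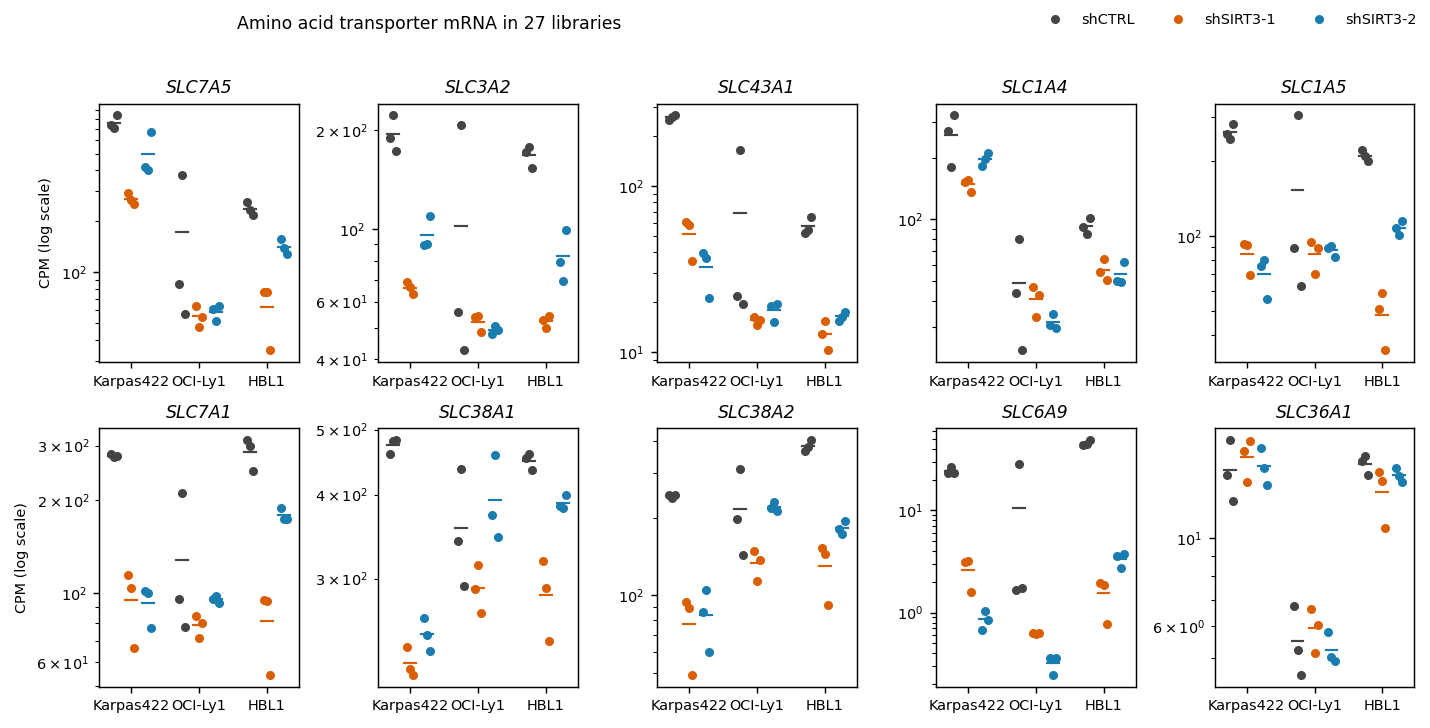
Level of each transporter mRNA in each of the 27 libraries, in CPM on a log scale that differs between panels, with a point per library (replicates 1 to 3 from left to right) and a bar at the mean of the group. In Karpas422 and HBL1 the shCTRL points of SLC6A9 and SLC43A1 lie far above all knockdown points, while in OCI-Ly1 replicate 2 of shCTRL lies far above the other controls.

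The glycine transporter SLC6A9 (hg19 chr1:44457172-44497139, minus strand) had the lowest knockdown values of the 10. In Karpas422 it stood at 23.1, 26.6 and 23.1 CPM with shCTRL, at 3.14, 3.18 and 1.60 CPM with shSIRT3-1 and at 0.668, 1.05 and 0.856 CPM with shSIRT3-2. In HBL1 it stood at 43.4, 44.5 and 48.8 CPM with shCTRL, at 1.97, 1.88 and 0.765 CPM with shSIRT3-1 and at 3.60, 2.74 and 3.78 CPM with shSIRT3-2. Neither line had any overlap between control and knockdown libraries, as was the case for 14.7% of tested genes in Karpas422 and 16.7% in HBL1 with all 6 knockdown libraries below the controls, and the shRNA with the lower values was shSIRT3-2 in Karpas422 and shSIRT3-1 in HBL1. In OCI-Ly1 the knockdown libraries read 0.626, 0.616 and 0.630 CPM with shSIRT3-1 and 0.356, 0.245 and 0.363 CPM with shSIRT3-2, so that all 18 knockdown libraries were below the lowest control of their own line (in OCI-Ly1, 6.58% of tested genes had no overlap in this direction). SLC6A9 fell over the 3 lines with a log2 fold change of -3.59 ± 0.42 (SE) with shSIRT3-1 (adjusted p = 5.61e-07) and -3.95 ± 0.42 (SE) with shSIRT3-2 (adjusted p = 2.44e-07). Without OCI-Ly1 shCTRL replicate 2 these were -3.29 and -3.66. The exons of SLC6A9 overlap those of CCDC24, on the other strand, over 413 bases, and strand-specific counting is not stated. CCDC24 averaged 7.90, 10.4 and 10.3 CPM in Karpas422 with shCTRL, shSIRT3-1 and shSIRT3-2. In the same order it averaged 2.59, 4.14 and 1.23 CPM in HBL1 and 1.16, 1.31 and 0.767 CPM in OCI-Ly1. The OCI-Ly1 averages with the SIRT3 shRNAs lay above the SLC6A9 values of those libraries. The part of the overlap in the SLC6A9 values was not tested.

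The heavy chain and the light chain of the leucine exchanger both fell over the 3 lines. SLC7A5 (hg19 chr16:87863629-87903113, minus strand) stood in Karpas422 at 735, 703 and 839 CPM with shCTRL, at 292, 266 and 251 CPM with shSIRT3-1 and at 417, 398 and 666 CPM with shSIRT3-2. In HBL1 its values were 261, 232 and 217 CPM with shCTRL, 76.3, 76.9 and 34.7 CPM with shSIRT3-1 and 156, 139 and 127 CPM with shSIRT3-2. Control and knockdown libraries did not overlap in either line, as for 14.7% of tested genes in Karpas422 and 16.7% in HBL1 in this direction. However, Karpas422 shSIRT3-2 replicate 3 lay close to the controls and HBL1 shSIRT3-1 replicate 3 far below the other replicates. Over the 3 lines SLC7A5 fell by 1.55 on the log2 scale with shSIRT3-1 (SE 0.24, adjusted p = 2.38e-05) and by 0.82 with shSIRT3-2 (SE 0.24, adjusted p = 0.00941). The log2 fold changes without OCI-Ly1 shCTRL replicate 2 were -1.33 and -0.61, both still called. In OCI-Ly1 SLC7A5 ranged from 56.5 to 374 CPM with shCTRL. It ranged from 47.7 to 63.7 CPM with shSIRT3-1 and from 51.8 to 63.2 CPM with shSIRT3-2.

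SLC3A2 (hg19 chr11:62623476-62656352, plus strand), the glycoprotein that carries SLC7A5 and its relatives to the cell surface, stood in HBL1 at 172, 178 and 153 CPM with shCTRL, at 52.6, 49.95 and 54.1 CPM with shSIRT3-1 and at 79.4, 69.4 and 99.5 CPM with shSIRT3-2. In Karpas422 it went from 189, 222 and 173 CPM to 68.9, 66.4 and 63.3 CPM with shSIRT3-1 and to 89.3, 89.8 and 109 CPM with shSIRT3-2. Both shRNAs left every library of these lines below its controls, as for 16.7% of tested genes in HBL1 and 14.7% in Karpas422. The fall over the 3 lines was called with each (log2 fold change -1.28 ± 0.20 and -0.91 ± 0.20, SE). These were -1.13 and -0.76 without OCI-Ly1 shCTRL replicate 2. In OCI-Ly1 the knockdown libraries, between 47.6 and 54.4 CPM, lay between the lower controls at 42.6 and 56.0 CPM. The log2 ratio of SLC7A5 to SLC3A2 there ranged from 0.41 to 0.85 with shCTRL. It ranged from -0.19 to 0.25 with shSIRT3-1 and from 0.03 to 0.36 with shSIRT3-2.

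SLC43A1 (hg19 chr11:57252007-57283253, minus strand) was the only transporter besides SLC6A9 with all 18 knockdown libraries below the lowest control of their line. Within single lines, 14.7% (Karpas422), 16.7% (HBL1) and 6.58% (OCI-Ly1) of tested genes had all 6 knockdown libraries below the controls. No share of all genes is given for the 18 libraries together, so that count cannot be set against all genes. In Karpas422 SLC43A1 stood at 251, 262 and 266 CPM with shCTRL, at 60.4, 58.4 and 35.4 CPM with shSIRT3-1 and at 39.6, 36.99 and 21.3 CPM with shSIRT3-2. In HBL1 the values were 52.1, 54.4 and 65.2 CPM, then 12.9, 15.5 and 10.3 CPM, and 15.4, 16.4 and 17.6 CPM in the same order of shRNAs. Its log2 fold changes over the 3 lines were -1.98 ± 0.29 with shSIRT3-1 (adjusted p = 1.28e-05) and -2.01 ± 0.29 with shSIRT3-2 (adjusted p = 1.23e-05), and they were -1.77 and -1.80 without OCI-Ly1 shCTRL replicate 2. In OCI-Ly1 the highest knockdown library, at 19.47 CPM, was just under the lowest control, at 19.52 CPM, so the absence of overlap there is by a margin far smaller than the spread of the controls.

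The neutral amino acid exchangers SLC1A5 and SLC1A4 differed in how far they fell. SLC1A5 (hg19 chr19:47278140-47291851, minus strand) stood in Karpas422 at 257, 245 and 281 CPM with shCTRL, at 92.8, 91.8 and 69.5 CPM with shSIRT3-1 and at 75.6, 79.9 and 55.7 CPM with shSIRT3-2. In HBL1 it stood at 221, 208 and 199 CPM, then at 51.01, 59.0 and 34.7 CPM with shSIRT3-1, and at 108, 101 and 115 CPM with shSIRT3-2. The shRNA with the lower values was shSIRT3-2 in Karpas422 and shSIRT3-1 in HBL1. Over the 3 lines SLC1A5 fell with both (log2 fold change -1.43 ± 0.25 and -1.11 ± 0.25, SE), and the values were -1.32 and -0.99 without OCI-Ly1 shCTRL replicate 2. In OCI-Ly1 it ranged from 63.1 to 305 CPM with shCTRL. The knockdown libraries there, from 70.2 to 94.7 CPM with shSIRT3-1 and from 82.1 to 90.7 CPM with shSIRT3-2, lay within the controls.

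SLC1A4 (hg19 chr2:65215611-65250999, plus strand) stood in HBL1 at 91.4, 85.2 and 102 CPM with shCTRL, at 55.2, 64.1 and 50.8 CPM with shSIRT3-1 and at 50.2, 49.6 and 62.2 CPM with shSIRT3-2. In Karpas422 the controls spread from 179.8 to 322 CPM, with 152, 156 and 136 CPM with shSIRT3-1 below them, as for 29.2% of tested genes, and 182, 198 and 212 CPM with shSIRT3-2 within them. Over the 3 lines its log2 fold changes of -0.52 ± 0.16 and -0.53 ± 0.16 (SE) had adjusted p-values of 0.0148 and 0.0131 but stayed short of the fold change required for a call, and they were -0.42 and -0.43 without OCI-Ly1 shCTRL replicate 2. SLC1A4 was called with both, at -0.67 and -0.68, without OCI-Ly1 shCTRL replicate 3, and with shSIRT3-2, at -0.59, without Karpas422 shCTRL replicate 2. In OCI-Ly1 it ranged from 23.0 to 80.5 CPM with shCTRL. The knockdown libraries there, from 33.5 to 47.1 CPM with shSIRT3-1 and from 29.4 to 34.6 CPM with shSIRT3-2, lay within the controls. Within each library the log2 ratio of SLC1A5 to SLC1A4 averaged 0.06 in Karpas422 shCTRL, -0.82 with shSIRT3-1 and -1.50 with shSIRT3-2, and the controls did not overlap with either. In HBL1 it averaged 1.18 with shCTRL, -0.26 with shSIRT3-1 and 1.00 with shSIRT3-2, where the shCTRL and shSIRT3-2 libraries overlapped.

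**Figure D2:**
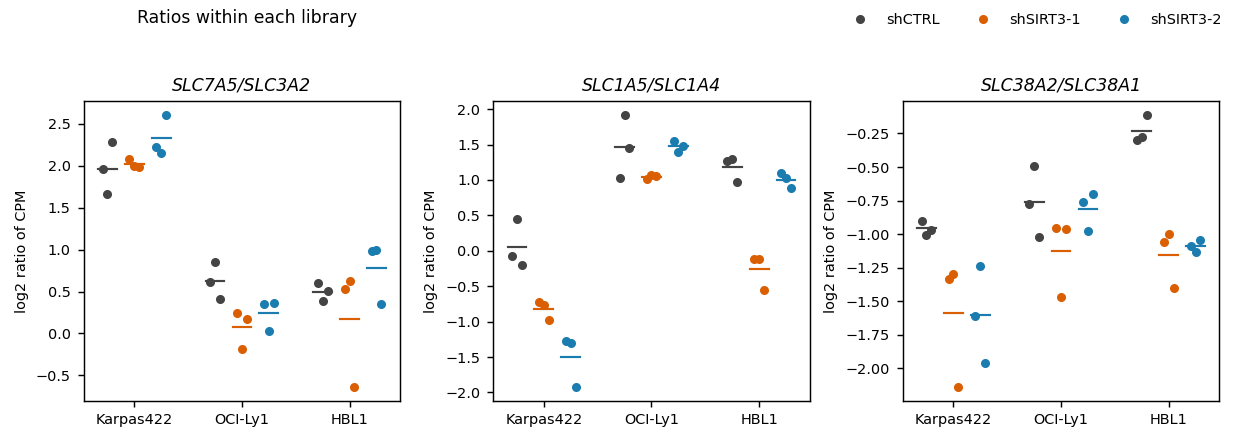
log2 ratio of the CPM of related transporters within each library (a point per library, a bar at the group mean), for SLC7A5 over SLC3A2, SLC1A5 over SLC1A4 and SLC38A2 over SLC38A1, with a separate vertical scale for each pair. The SLC1A5 to SLC1A4 ratio drops in Karpas422 with both shRNAs and in HBL1 with shSIRT3-1. The SLC7A5 to SLC3A2 ratio in Karpas422 stays between 1.66 and 2.61 in all 9 libraries. In OCI-Ly1 it lies between 0.41 and 0.85 with shCTRL and lower in every knockdown library.

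The arginine and lysine transporter SLC7A1 (hg19 chr13:30083551-30169825, minus strand) had tight controls in Karpas422, at 282, 275 and 278 CPM, and it read 115, 104 and 66.4 CPM there with shSIRT3-1 and 102, 100.3 and 77.2 CPM with shSIRT3-2. In HBL1 it went from 312, 299 and 249 CPM to 95.3, 94.6 and 54.4 CPM with shSIRT3-1 and to 189, 174 and 174 CPM with shSIRT3-2. No knockdown library of these lines reached the controls, as for 14.7% of tested genes in Karpas422 and 16.7% in HBL1. Over the 3 lines SLC7A1 had log2 fold changes of -1.34 ± 0.20 and -0.85 ± 0.20 (SE), and without OCI-Ly1 shCTRL replicate 2 they were -1.28 and -0.79. In OCI-Ly1 SLC7A1 ranged from 77.6 to 212 CPM with shCTRL. It ranged from 71.7 to 84.5 CPM with shSIRT3-1 and from 92.7 to 97.9 CPM with shSIRT3-2.

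The sodium-coupled glutamine and alanine transporters also fell to different extents. SLC38A2 (hg19 chr12:46751971-46766556, minus strand), which is known to be induced by amino acid shortage, stood in HBL1 at 368, 378 and 404 CPM with shCTRL, at 153, 145 and 91.8 CPM with shSIRT3-1 and at 181, 174 and 194 CPM with shSIRT3-2. In Karpas422 its values were 246, 240.0 and 247 CPM, then 94.1, 89.7 and 48.9 CPM, and 86.0, 105 and 60.3 CPM. The fall over the 3 lines was called with both shRNAs (log2 fold change -1.32 ± 0.19 and -0.85 ± 0.19, SE), and the values were -1.31 and -0.84 without OCI-Ly1 shCTRL replicate 2. In OCI-Ly1 SLC38A2 ranged from 144 to 311 CPM with shCTRL and from 114 to 149.5 CPM with shSIRT3-1. With shSIRT3-2 it ranged there from 214 to 232 CPM, within the controls (log2 fold change 0.09 in that line alone).

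SLC38A1 (hg19 chr12:46576846-46663800, minus strand), its neighbour on the chromosome, stood in Karpas422 at 459.5, 481 and 482 CPM with shCTRL, at 237, 219.9 and 216 CPM with shSIRT3-1 and at 262, 247 and 234 CPM with shSIRT3-2. In HBL1 it stood at 453, 459 and 436 CPM, then at 319, 290.2 and 242 CPM, and at 385, 382 and 399.9 CPM. It was called over the 3 lines with shSIRT3-1 (log2 fold change -0.68 ± 0.12, SE, adjusted p = 5.99e-05), with the same rounded value without OCI-Ly1 shCTRL replicate 2, and lost the call without Karpas422 (-0.48). With shSIRT3-2 it read -0.33 ± 0.12 (SE, adjusted p = 0.0244), short of the fold change required, and again -0.33 without OCI-Ly1 shCTRL replicate 2. In OCI-Ly1 SLC38A1 ranged from 292 to 437 CPM with shCTRL. It ranged from 266 to 314 CPM with shSIRT3-1 and from 346 to 458 CPM with shSIRT3-2. The log2 ratio of SLC38A2 to SLC38A1 averaged -0.23 in HBL1 shCTRL, -1.15 with shSIRT3-1 and -1.09 with shSIRT3-2, with no overlap between controls and knockdown.

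SLC36A1 (hg19 chr5:150816607-150871940, plus strand) stood apart from the other transporters. It ranged from 12.4 to 17.6 CPM in the Karpas422 controls and from 13.5 to 17.5 CPM in the knockdown libraries of that line. SLC36A1 had log2 fold changes over the 3 lines of -0.0018 ± 0.09 and -0.03 ± 0.09 (SE), with 95% intervals from -0.19 to 0.19 and from -0.23 to 0.16. Their sign changed with the scaling of the libraries, and they were -0.01 and -0.05 without OCI-Ly1 shCTRL replicate 2. HBL1 shSIRT3-1 replicate 3, at 10.6 CPM, was the lowest library of its line.

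**Figure D3:**
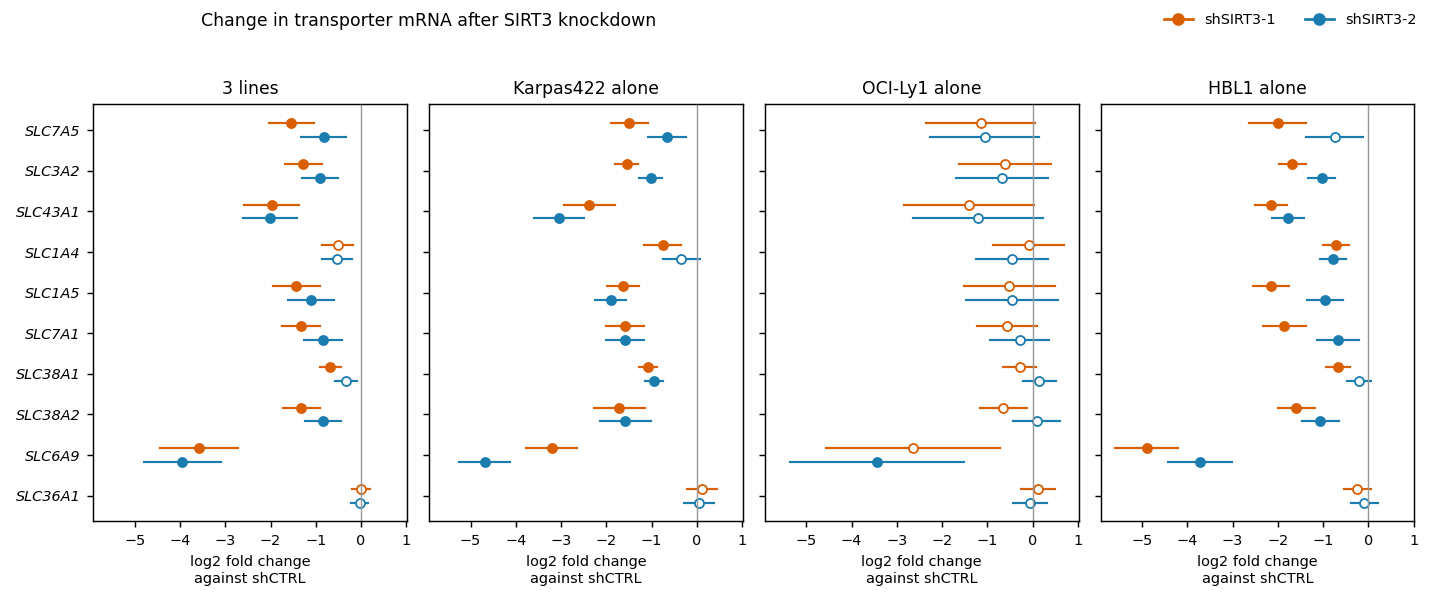
log2 fold change of each transporter against shCTRL over the 3 lines and in each line fitted alone, with 95% confidence intervals. Filled points passed a fold change above 1.5 and an adjusted p below 0.05, and the OCI-Ly1 panel has the widest intervals and a single filled point, SLC6A9 with shSIRT3-2.

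Each line was also fitted alone. In Karpas422, 9 of the 10 fell with shSIRT3-1 (11.5% of genes did) and 8 with shSIRT3-2 (9.44%), SLC1A4 being the difference. In HBL1, 9 fell with shSIRT3-1 (18.8%) and 7 with shSIRT3-2 (16.0%), where SLC38A1 read -0.21 and SLC7A5 -0.75 with an adjusted p of 0.0640 in limma. Some of these calls rested on single libraries. In Karpas422 with shSIRT3-2, SLC7A5 was no longer called without shCTRL replicate 1 or 3 or without shSIRT3-2 replicate 1 or 2 (-0.68, -0.58, -0.56 and -0.52), and with shSIRT3-1, SLC1A4 was not without shCTRL replicate 3 (-0.57). In HBL1, SLC7A1 lost its call with shSIRT3-2 without shCTRL replicate 1 or 2 or any shSIRT3-2 library (from -0.71 to -0.61), SLC38A1 lost it with shSIRT3-1 without shSIRT3-1 replicate 3 (-0.56), and without that library SLC7A5 was called with shSIRT3-2. The steepest values were those of SLC6A9, at -4.90 ± 0.31 (SE) in HBL1 with shSIRT3-1 and -4.69 ± 0.25 (SE) in Karpas422 with shSIRT3-2, followed by SLC43A1 at -3.04 ± 0.25 (SE) in Karpas422 with shSIRT3-2.

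In OCI-Ly1 alone, limma called 0 of the 10 with shSIRT3-1, where 2.45% of genes were called lower, and 2 of the 10 had an unadjusted p below 0.05. The edgeR quasi-likelihood test on the reads called 1 and its likelihood ratio test 4. With shSIRT3-2, limma called SLC6A9 (log2 fold change -3.44 ± 0.86, SE, adjusted p = 0.0384), where 4.26% of genes were called lower. In this line SLC6A9 passed the filter only through its 3 shCTRL libraries, so it could only be tested because the controls were high, and the call is given as a description. The call was lost (adjusted p from 0.0608 to 0.125 in limma) without shSIRT3-1 replicate 1 or 3 or any shSIRT3-2 library, and SLC6A9 was under the filter without any shCTRL library. When shCTRL replicate 2 was left out, limma called 0 of the 9 that could still be tested with either shRNA, 1 of them having an unadjusted p below 0.05 with each, and their log2 fold changes lay between -0.41 and 0.39. In that fit 0.961% of genes were called lower and 1.02% higher with shSIRT3-1, and 1.87% and 1.33% with shSIRT3-2. SLC6A9 was under the filter there, since only 2 libraries were left above 1 CPM. SIRT3 itself was lower in OCI-Ly1 with both shRNAs (log2 fold change -2.78 ± 0.26 and -1.08 ± 0.26, SE), and without shCTRL replicate 2 the values were -2.65 and -0.94, the latter with an adjusted p of 0.0973 in limma and not called.

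**Figure D4:**
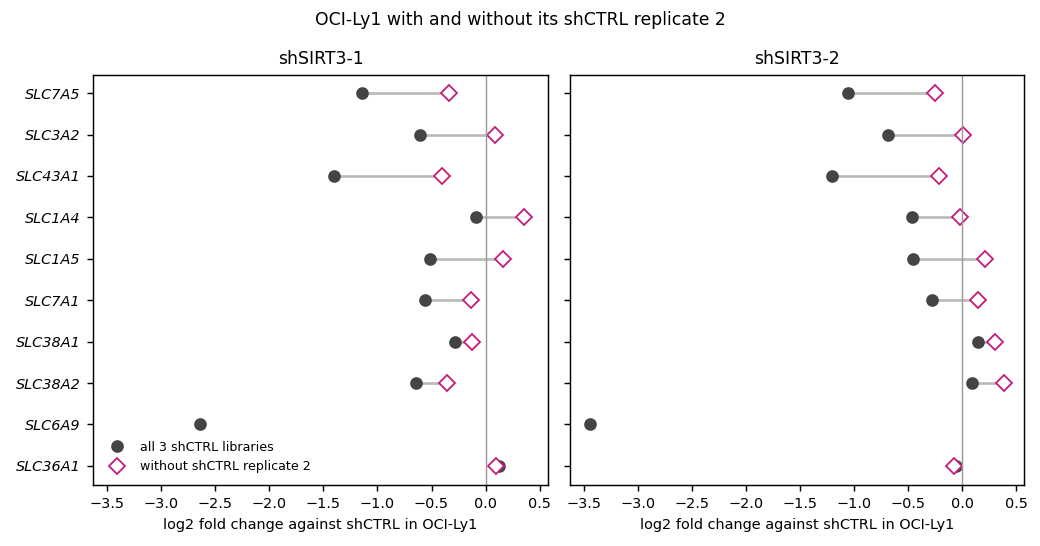
log2 fold change of each transporter in OCI-Ly1 fitted alone, with all 3 shCTRL libraries (filled circles) and without shCTRL replicate 2 (open diamonds). The diamonds lie between -0.41 and 0.39, and SLC6A9 has none because it was under the filter in that fit.

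The difference in response between the lines was tested as an interaction of line and shRNA. It was called for 4 of the 10 transporters, SLC38A1 (adjusted p = 0.00117), SLC7A1 (0.00807), SLC38A2 (0.00832) and SLC1A5 (0.0137), a share close to the 41.8% of all genes for which it was called. It was called for 0 without replicate 1 of every group, for 2 without replicate 3 and for 8 without replicate 2. No share of all genes is given for these fits, which had fewer libraries. Without HBL1 shSIRT3-1 replicate 3 it was called for 4. Leaving out OCI-Ly1 shCTRL replicate 2, it was called for 9 of the 10, all but SLC36A1, where 44.4% of genes were. In that fit SLC1A5 had an adjusted p of 3.35e-06, SLC3A2 and SLC6A9 of 6.16e-06 and SLC43A1 of 1.29e-05 in limma. Most of the transporters were high in the library left out, against the other OCI-Ly1 controls. The count without it therefore depends on that choice of library and is given as a description.

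The SIRT3 shRNAs were also compared with each other over the 3 lines. SIRT3 mRNA was higher with shSIRT3-2 than with shSIRT3-1 (log2 difference 1.08 ± 0.17, SE), and SLC7A5 was the 1 transporter called, higher with shSIRT3-2 (0.72 ± 0.24, SE, adjusted p = 0.0241), where 5.27% of genes were called higher. Without HBL1 shSIRT3-1 replicate 3 the SLC7A5 difference was 0.58 with an adjusted p of 0.0540 in limma, no longer called, while without OCI-Ly1 shCTRL replicate 2 the count was again 1. The other 9 had log2 differences between -0.36 (SLC6A9, 95% interval from -1.22 to 0.49) and 0.49 (SLC7A1, 0.07 to 0.91).

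Before knockdown, the lines held the transporters at different levels. Per kilobase of the GENCODE transcript, the order in the Karpas422 controls was led by SLC7A5 (167 ± 15.6 CPM per kb, SD, n = 3), followed by SLC43A1 (103 ± 3.11) and SLC3A2 (103 ± 13.3), which did not differ beyond their spread, and by SLC1A5 (90.6 ± 6.42). In the HBL1 controls it was led by SLC3A2 (88.9 ± 6.89 CPM per kb), SLC38A2 (79.9 ± 3.88) and SLC1A5 (72.7 ± 3.73), with SLC7A5 (51.9 ± 4.85) next to SLC38A1 (55.5 ± 1.49) within their spread. SLC36A1 was the lowest per kilobase in Karpas422 and HBL1, at 2.56 and 2.65 CPM per kb. In OCI-Ly1 SLC6A9 was below it in replicates 1 and 3 (0.520 and 0.546 against 1.17 and 0.785 CPM per kb) and above it in replicate 2 (8.84 against 0.906). In OCI-Ly1 the SDs were nearly as large as the means or larger for SLC3A2, SLC1A5, SLC7A5, SLC43A1 and SLC6A9, so no order was read among them.

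Between the controls, HBL1 was below Karpas422 for SLC43A1 (log2 fold change -2.19 ± 0.63, SE), SLC7A5 (-1.68 ± 0.53) and SLC1A4 (-1.43 ± 0.37) and above it for SLC38A2 (0.65 ± 0.23), which makes 4 of the 10 called against 54.6% of all genes (28.8% lower and 25.8% higher) and 5 without OCI-Ly1 shCTRL replicate 2. SLC38A2 lost that call (0.61 to 0.66) without any Karpas422 control or without HBL1 shCTRL replicate 2 or 3. OCI-Ly1 was below Karpas422 for 8 of the 10, all but SLC38A1 and SLC38A2 (28.2% of genes were called lower), and for 9 without its replicate 2. Leaving out any other control of these 2 lines left 5, since SLC3A2, SLC1A5 and SLC6A9 were lost, and SLC1A5 was also lost without any HBL1 control. HBL1 was above OCI-Ly1 for 5 (SLC1A4, SLC7A1, SLC38A2, SLC6A9 and SLC36A1), where 29.6% of genes were called higher, and for 9 without that replicate. SLC1A4 was no longer called there without OCI-Ly1 shCTRL replicate 1 or 3 or HBL1 shCTRL replicate 3 (1.10, 0.64 and 1.02). SLC6A9 read 3.33 ± 0.84 (SE) higher on the log2 scale in HBL1 than in OCI-Ly1, and 4.66 without the replicate. For the fits between controls that left out a library, no share of all genes is given. Their counts therefore cannot be set against all genes.

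Of 29 other amino acid transporters of the plasma membrane, 9 passed the filter, and the other 20 read at most 0.420 CPM in any library. With both shRNAs 3 of the 9 fell, where 3.98% of all tested genes did, SLC7A11 (log2 fold change -2.76 ± 0.38 and -1.85 ± 0.38, SE), SLC7A7 (-0.95 ± 0.18 and -1.44 ± 0.18) and SLC7A8 (-0.77 ± 0.27 and -1.60 ± 0.27). All 3 encode light chains that pair with SLC3A2, SLC7A11 being the cystine and glutamate exchanger. SLC7A11 averaged 45.1 CPM in Karpas422 shCTRL, 10.2 CPM with shSIRT3-1 and 31.9 CPM with shSIRT3-2, and in HBL1 13.3, 0.648 and 2.69 CPM. SLC7A8 was near the filter, at 3.05 CPM in HBL1 shCTRL and 0.564 and 0.562 CPM with the SIRT3 shRNAs. In the other direction, and named after their values were seen, SLC7A6 (0.69 ± 0.14, SE), another light chain of SLC3A2, and SLC43A2 (0.85 ± 0.31), a relative of SLC43A1, rose with shSIRT3-1, where 3.92% of genes rose. Leaving out OCI-Ly1 shCTRL replicate 2, the calls in this list were again 3 lower and 2 higher with shSIRT3-1 and 3 lower with shSIRT3-2 (3.94% and 3.08% of genes were called higher in that fit), with SLC7A11 at -2.52 and -1.61, SLC7A7 at -0.92 and -1.41, SLC7A8 at -0.83 and -1.65, SLC7A6 at 0.75 and SLC43A2 at 0.92. Without HBL1 shSIRT3-1 replicate 3, SLC7A8, SLC7A6 and SLC43A2 lost their calls with shSIRT3-1 (-0.62, 0.58 and 0.60), and SLC7A11 and SLC7A7 were called with both. In that fit SLC43A2 was called higher with shSIRT3-2 (0.75, adjusted p = 0.0192 in limma), though not with all libraries. No share of genes called higher is given for that fit. SLC16A10, named after its values were seen, was called lower there with shSIRT3-1 (-0.66), where 8.09% of genes were. SLC7A6 went from 66.7, 67.5 and 87.3 CPM in HBL1 shCTRL to 201, 166 and 249 CPM with shSIRT3-1.

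Of 10 amino acid and peptide transporters of lysosomes and other inner membranes, 9 passed the filter. Limma called 0 of them with shSIRT3-1, with 4 at an unadjusted p below 0.05, where 9.09% of genes were called lower and 3.92% higher. It called 1 with shSIRT3-2, in the higher direction, where 10.2% of genes were called lower and 3.29% higher. That gene, SLC38A7, a glutamine transporter of lysosomes, was named after its values were seen. It rose from a mean of 18.6 CPM to 31.4 CPM in HBL1 and from 9.35 to 16.7 CPM in Karpas422 with shSIRT3-2 (log2 fold change over the 3 lines 0.78 ± 0.09, SE, adjusted p = 1.11e-06), and it read 0.49 ± 0.09 (SE) with shSIRT3-1. Leaving out OCI-Ly1 shCTRL replicate 2, SLC38A7 read 0.81 with shSIRT3-2. In that fit SLC38A6, also named after its values were seen, was called higher with shSIRT3-1 (0.60 ± 0.16, SE), where 3.94% of genes were. Leaving out HBL1 shSIRT3-1 replicate 3 instead, SLC38A7 was called with shSIRT3-2 (0.78), while SLC38A6 was not called with shSIRT3-1 (0.42). The median log2 fold change of the 9 was -0.02 and 0.12 with shSIRT3-1 and shSIRT3-2.

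**Figure D5:**
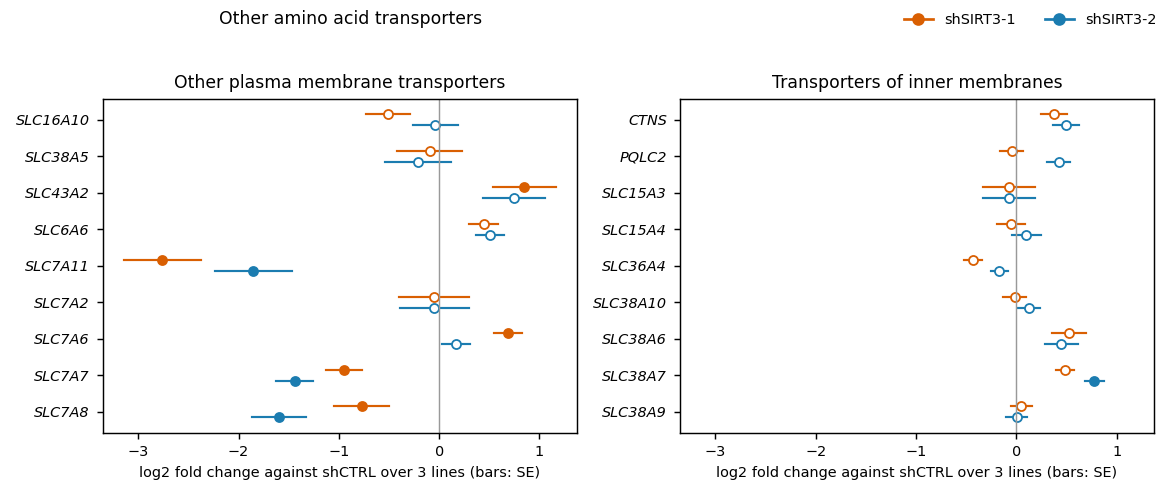
log2 fold change over the 3 lines with SE bars for the tested genes of the other plasma membrane list (left) and of the inner membrane list (right), with filled points for genes called. SLC7A11, SLC7A7 and SLC7A8 are filled with both shRNAs on the left, and SLC38A7 with shSIRT3-2 is the single filled point on the right.

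The genes whose pattern was most like each transporter were taken by Pearson r over the 27 libraries, with the mean of each line subtracted, as a description without a test, since the libraries share their groups. Without OCI-Ly1 shCTRL replicate 2 no r below moved by more than 0.0437. SLC43A1 was closest to XPOT (r = 0.98), which exports tRNAs from the nucleus, to the glycyl-tRNA synthetase GARS (0.98) and to the transcription factor gene CEBPB (0.98). SLC6A9 was closest to PSAT1 (0.98), an enzyme of serine synthesis, to ULBP1 (0.98), a ligand of natural killer cells, and to CHAC1 (0.97), which breaks down glutathione. SLC1A5 was closest to SLC7A1 (0.98), to the glutamyl-prolyl-tRNA synthetase EPRS (0.98) and to PROSER1 (0.96), and SLC7A1 to SLC1A5, PROSER1 (0.97) and GRPEL2 (0.97). For SLC38A2 these were TMEM268 (0.96), PCBP2 (0.95) and SLC7A1 (0.94), and for SLC38A1 they were RAD21, CCDC71L and SLC38A2 (all 0.92). SLC3A2 was closest to TMEM140 (0.95), GCC1 (0.95) and SLC39A9 (0.94), and SLC7A5 to SLC39A9 (0.92), SLC7A11 (0.92) and CLASP2 (0.91). SLC1A4 had lower values, with MED8 (0.84), MNS1 (0.83) and HENMT1 (0.83), and SLC36A1 the lowest, with MEMO1 (0.79), KIF9 (0.73) and ATP5F1 (0.71).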

How the data were processed

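RNA-seq of 27 libraries was used, grouped by the cell line and shRNA in the sample labels. The authors used STAR for alignment of the paired ends to hg19 and Rsubread for the assignment to RefSeq genes, and the versions are not given in the sources used here. Although the deposited values are named FPKM, those of a library are whole multiples (tolerance 0.05) of 1 common step whatever the length of the gene. The authors' values were therefore taken as CPM, of which 1 read makes 0.00831 to 0.0157. The listed genes hold 40.3% to 45.6% of the total the authors divided by.

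The 27115 genes were filtered to those reaching 1 CPM in 3 or more of the fitted libraries and tested as log2(CPM + 0.1) with limma 3.58.1 in R 4.3.3 (empirical Bayes with a variance trend), with line as an additive term, as an interaction, within each line and between lines under shCTRL. p-values were adjusted by Benjamini-Hochberg over all genes tested. edgeR 4.0.16 was run on the recovered reads as an alternative. In OCI-Ly1 shCTRL replicate 3 and shSIRT3-2 replicate 1 the step lies near 0.01 CPM. The tests were checked on simulated data with the same dispersion for every gene and no library set apart from its replicates. The check therefore does not cover libraries that stand apart, as some do here. No replicate pair agreed within sampling noise (chi-square per degree of freedom 6.74 or more in 27 pairs). Gene positions and exon overlaps are from GENCODE on hg19, and promoter windows from RefSeq. The transporters, lists, motif and tests were chosen with earlier results of these data known. The text names the 10 transporters, SIRT3, the genes of the further lists called with both shRNAs and the 3 genes closest to each transporter. Named after their values were seen were SLC7A6, SLC43A2, SLC16A10, SLC38A6, SLC38A7, CCDC24, SLC7A5P2, EPCAM, CD3G, CD3D, CD22, PAX5 and CD79A. Python 3.11.15, numpy 2.4.6 and matplotlib 3.10.9 were used for reading files and drawing. Alternatives were other pseudocounts (1 and 0.01), scalings, filters, variance models, tools, a fit on the 18 libraries compared, a replicate block, and leaving out each library, replicate number or line. For SIRT3 and the further lists, leaving out OCI-Ly1 shCTRL replicate 2 or HBL1 shSIRT3-1 replicate 3 was chosen after seeing the data.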

Additional observations from a re-analysis of the deposited data

Results flagged for a closer look

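Among the 10 transporters, the response to the SIRT3 shRNAs differed between the lines by the interaction test in limma for 4. The adjusted p was 0.00117 for SLC38A1, 0.00807 for SLC7A1, 0.00832 for SLC38A2 and 0.0137 for SLC1A5, where the same test was passed by 41.8% of all genes, so the share of the transporters is near that of all genes. The test was passed by 0 without replicate 1 of every group, by 2 without replicate 3 and by more than 4 without replicate 2. Those fits had fewer libraries, and no share of all genes is given for them. Without OCI-Ly1 shCTRL replicate 2 the test was passed by 9, where 44.4% of all genes passed it. Most of the transporters were high in that library, so this count depends on leaving it out and is given as a description. The values that follow are log2 fold changes with shSIRT3-1 and then shSIRT3-2, for each line fitted alone in the order Karpas422, OCI-Ly1, HBL1. For SLC38A1 they were -1.08 and -0.94, -0.28 and 0.15, and -0.67 and -0.21. SLC7A1 had -1.59 and -1.59, -0.56 and -0.28, and -1.86 and -0.68. SLC38A2 had -1.71 and -1.58, -0.65 and 0.09, and -1.59 and -1.07. For SLC1A5 the values were -1.63 and -1.90, -0.51 and -0.46, and -2.15 and -0.96. No test was made of which line or shRNA carried the difference.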

How the results depend on the processing

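Among the 3168 fold changes and 390 interaction p-values of single transporters under all alternatives, 3396 kept their side of the threshold, 117 were no longer called and 45 became called. Of the fold changes, 75 changed sign, 33 of them of SLC36A1, and none of these was called in either fit. With Karpas422 left out, 4 were called with shSIRT3-2 and 3 with both shRNAs over the lines, with SLC7A5, SLC1A5, SLC7A1 and SLC38A2 no longer called and SLC1A4 called with shSIRT3-2, and SLC38A1 was no longer called with shSIRT3-1. Between the SIRT3 shRNAs, 2 (SLC7A1 and SLC38A2, not SLC7A5) were called without Karpas422, 3 without OCI-Ly1 and 0 without HBL1. In OCI-Ly1 alone, shSIRT3-1 gave 1 call with edgeR's quasi-likelihood test and 4 with its likelihood ratio test, and shSIRT3-2 gave 0 with a pseudocount of 1 or no filter and 3 with the likelihood ratio test. HBL1 against OCI-Ly1 gave 3 with the quasi-likelihood test, and OCI-Ly1 against Karpas422 gave 5 with either edgeR test. The cause was not tested.

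Leaving out 1 library or 1 replicate number, the number called ranged from 8 to 9 with shSIRT3-1 and from 2 to 8 with shSIRT3-2 over the 3 lines, from 2 to 8 with both, from 0 to 1 between the SIRT3 shRNAs, from 0 to 9 for the interaction, from 0 to 1 in OCI-Ly1 with shSIRT3-2 and from 2 to 8 in HBL1 with shSIRT3-2. It ranged from 1 to 5 for HBL1 against Karpas422, from 2 to 9 for HBL1 against OCI-Ly1 and from 4 to 9 for OCI-Ly1 against Karpas422. No share of all genes is given for these ranges between lines. The lowest counts with shSIRT3-2 came without replicate 2 of every group. SLC7A5, SLC3A2, SLC1A5, SLC7A1 and SLC38A2 lost the call there, with adjusted p between 0.0539 and 0.208 in limma. Their log2 fold changes over the 3 lines lay between -0.92 and -0.50 in that fit, and between -1.11 and -0.82 with all libraries. The interaction was called for 0 without replicate 1, 2 without replicate 3 and 8 without replicate 2 of every group. Of the 9 OCI-Ly1 libraries left out in turn, the call of SLC6A9 with shSIRT3-2 held without shSIRT3-1 replicate 2 alone, and without any shCTRL library it was under the filter and had no value. SLC7A5 lost its call between the SIRT3 shRNAs without HBL1 shSIRT3-1 replicate 3.

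With the replicate number as a block, 8, 7 and 7 transporters were called with shSIRT3-1, shSIRT3-2 and both over the 3 lines, 4 for the interaction, 8 in HBL1 with shSIRT3-2 and 6 for HBL1 against OCI-Ly1, and it moved no count by over 1.5 times. Same-numbered libraries of a line deviated together in 26 of 27 pairs (r from 0.01 to 0.56), against a mean of -0.14 for other numbers, and 19 of 27 libraries correlated best with their own number. This hints at a pairing, but 1 pair was under the 0.1 required of every pair and the labels give no meaning to the number, so the fits without the block are the ones reported. Another scaling moved the median of all genes by over 0.1 for HBL1 with shSIRT3-1 (from -0.11 to 0.04 under quantile normalization), HBL1 with shSIRT3-2 (from -0.06 to 0.06 under median-ratio scaling) and HBL1 against OCI-Ly1 (from 0.05 to -0.07 under quantile normalization).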

Other observations

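Across the 27 libraries, with the mean of each line subtracted, the 36 pairs among the transporters other than SLC36A1 had a median Pearson r of 0.85, from 0.54 to 0.98, and the 9 pairs with SLC36A1 lay between 0.06 and 0.20. Without OCI-Ly1 shCTRL replicate 2 the ranges were 0.51 to 0.98 and 0.08 to 0.30. The libraries share their groups, so these are descriptions. SLC1A4 had the lowest correlations among the former, between 0.54 and 0.80.

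The pseudogene SLC7A5P2, which shares sequence with SLC7A5, averaged 0.447 CPM in Karpas422 shCTRL and 0.362 CPM in HBL1 shCTRL, and 0.843 CPM in HBL1 with shSIRT3-1, where its libraries ranged from 0.378 to 1.11 CPM.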
